A study of Mus musculus with 502 samples.

Results

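Prostate and androgen response gene loci are described here by the silencers that Ss-STARR-seq listed around them. In Ss-STARR-seq, random pieces of genomic DNA are cloned into a reporter plasmid, and those that lower the reporter's transcript are called silencers. The members are all silencers whose midpoint lies in 1 of 14 windows of 0.55 to 0.8 Mb on hg38, laid around genes that mark prostate epithelium or respond to androgen. The windows were chosen by gene and not by measured values. They hold 1282 of the 397137 silencers analysed (0.323%), with 373 of 125249 from 293T, 451 of 134159 from K562 and 458 of 137729 from LNCap. Together the windows span 8.5 Mb.

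The study compared 3 human cell lines, and no androgen or other agent is labelled for any of them. LNCap is an androgen-sensitive prostate cancer line, K562 a leukaemia line with erythroid features, and 293T a line from embryonic kidney that carries a viral large T antigen. All were grown in DMEM with serum, per the labels' protocols, whose text also mentions iCD1 medium for induction without saying which lines. Each line is a single established culture line, so differences between lines are not differences between tissues. The labels list 502 libraries (102 output and 1 input library of 293T, 180 output of K562, 179 output and 40 input of LNCap), which are deposited as 1 silencer list per line. Every library is labelled as mouse, although the lines and the build named are human, and the positions were read as human. With 1 list per line there is no replicate and no test between lines; intervals below are exact 95% Poisson intervals for counts and exact 95% binomial (Clopper-Pearson) intervals for shares, and cover counting error only. The read depth behind a silencer is unknown.

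In luminal prostate cells, androgen enters the cell and binds the androgen receptor, which moves to the nucleus and binds DNA response elements, often beside the pioneer factor FOXA1 that opens chromatin for it. The receptor raises many genes of the secretory prostate programme, among them KLK3, which encodes prostate-specific antigen. A silencer is a stretch of DNA that lowers transcription of a gene, and in a plasmid assay this is read outside its own chromatin. No human annotation was used here, so silencers are placed in windows and not in promoters, exons or introns, and whether any of them acts on the gene that names its window was not tested.

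Silencers were about as dense in these windows as on the rest of their chromosomes in 293T, and slightly denser in value in K562 and LNCap. Taking each list's mean density on the window's own chromosome, 362 silencers were expected in 293T and 373 were listed (1.03 times, interval 0.929 to 1.14). Chromosome length was taken up to the last silencer listed, so stretches that hold no silencer of any list count in it. This lowers the expected counts and raises the ratios here and below, by an amount that was not measured. Ratios slightly above 1 therefore do not show an excess. In K562, 403 were expected and 451 listed (1.12 times, interval 1.02 to 1.23). That interval came to include 1 without the FKBP5 window (1.07 times, 0.972 to 1.18), without the FOLH1 window (1.07 times, 0.969 to 1.18), without the CAMKK2 window (1.07 times, 0.972 to 1.18) and with silencers within 500 bp merged (1.11 times, 0.999 to 1.22). In LNCap, 417 were expected and 458 listed (1.10 times, interval 0.999 to 1.20). Over all silencers, the intervals of the prostate line and the leukaemia line overlapped. Among silencers above their list's median score, LNCap came to 1.23 times (interval 1.08 to 1.39) and K562 to 1.09 times (interval 0.947 to 1.25). There 293T came to 1.16 times (interval 0.999 to 1.34). At scores of at least 3, 293T was highest in value (1.33 times, interval 1.03 to 1.69). LNCap came to 1.16 times (interval 0.877 to 1.51) and K562 to 1.11 times (interval 0.809 to 1.49). The share of a list that fell in the windows, divided by the mean share of the other lists, was 1.05 for LNCap, 1.07 for K562 and 0.891 for 293T. The order of the lists in this ratio turned with the score. Above the median score it was 1.13 for LNCap (interval 0.993 to 1.28), 0.930 for K562 and 0.951 for 293T. At scores of at least 3 it was 1.10 for 293T, 0.988 for LNCap and 0.916 for K562. An interval on this ratio covers the counting error of 1 list and not of the others, so it is too narrow.

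The 14 windows were far from alike. Per window, the count ran from 11 to 50 in 293T (median 26.0), from 14 to 70 for K562 (median 25.5) and from 13 to 63 for LNCap (median 30.0). The interval of the count lay above the density of its own chromosome in 4 windows in 293T, against 16.3% of all 600 kb bins of the genome. It did so in 3 windows in K562 (18.3% of bins) and in 3 in LNCap (19.4% of bins). It lay below in 2 windows in 293T (13.4% of bins), 2 in K562 (15.7% of bins) and 1 in LNCap (16.6% of bins). With so few windows, these counts are close to what those shares give for 14 windows, except that 293T lay above in value.

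**Figure D1:**
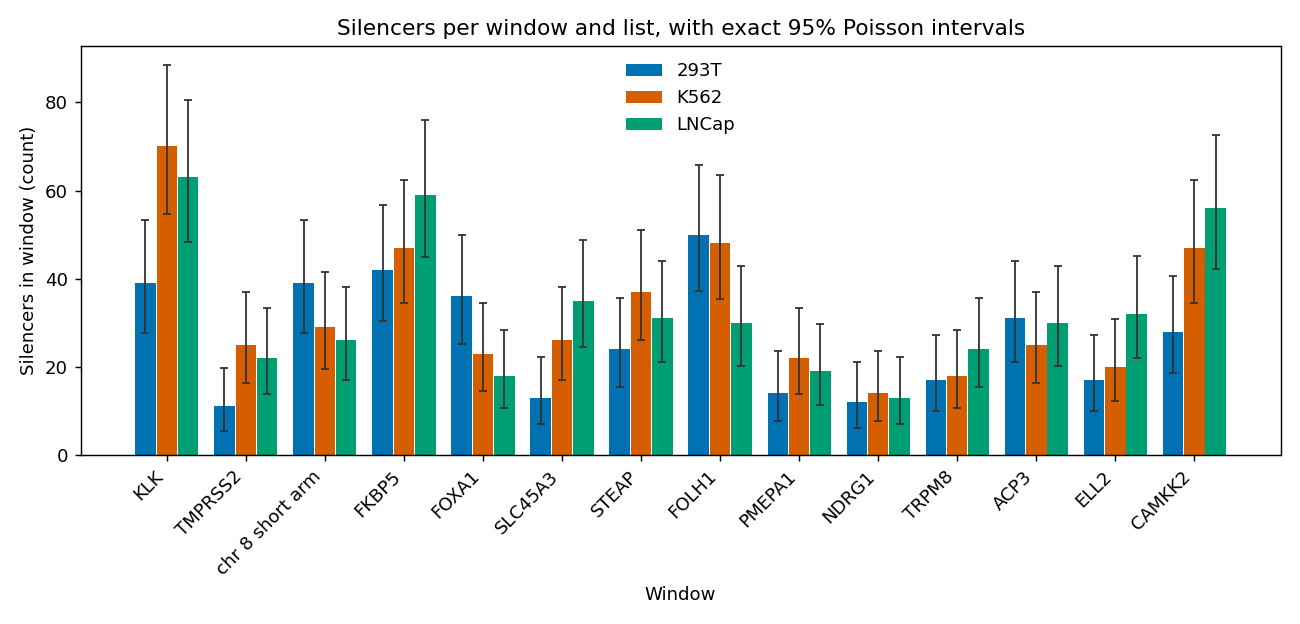
Silencers per window (count, vertical axis) for the 14 windows, with 1 bar per list and exact 95% Poisson intervals as error bars. The KLK window was fullest in K562 (70) and LNCap (63), the FOLH1 window was fullest in 293T (50), and the NDRG1 window held 12 to 14 silencers of each list.

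The KLK window covers chromosome 19 from 50.5 to 51.3 Mb. It is named for KLK3 (prostate-specific antigen), KLK2 and KLK4, secreted serine proteases of the kallikrein family. Its 172 silencers were 39 of 293T, 70 of K562 and 63 of LNCap, and 9.05% of genome bins of the same length held at least as many. On chromosome 19, which is dense in silencers throughout, this is an ordinary level: 0.838 times the chromosome's density for 293T, 0.998 times for K562 and 0.840 times in LNCap, each with an interval that includes 1. The silencers were not spread evenly. The 50 kb from 50600000 to 50650000 held 11 LNCap and 9 K562 silencers and 4 of 293T, the fullest such stretch of the window for both LNCap and K562. The highest LNCap score in the window, 3.3, belonged to chr19:50671279-50671329, which overlapped no other list. The score is the authors' activity value, at least 2 in the lines kept here. No source gives its scale, so here it only ranks silencers within a list. In 293T the highest scores were 4.9 (chr19:50611050-50611101) and 4.7 (chr19:50749101-50749200).

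ACP3 encodes prostatic acid phosphatase, a secreted and membrane enzyme of the prostate. Its window on chromosome 3, from 132 to 132.65 Mb, held 31 silencers of 293T, 25 of K562 and 30 of LNCap. In every list the interval included the density of the chromosome (1.05, 0.856 and 1.01 times). Of the 5 highest-scoring LNCap members, 2 lay here: chr3:132434301-132434351 (score 5.1) and chr3:132049199-132049300 (score 4.8). Neither overlapped another list, although the nearest midpoint of another list was 100 and 173 bp away. Another LNCap member of this window, chr3:132629550-132629600, also scored 4.8 and did overlap K562. It fell outside the 5 only because ties were taken in order of position.

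FOLH1 encodes prostate-specific membrane antigen, a surface peptidase used as an imaging and therapy target. The window on chromosome 11 from 48.9 to 49.5 Mb held 50 silencers of 293T, 48 of K562 and 30 of LNCap. It was denser than the chromosome in 293T (1.96 times, interval 1.46 to 2.58) and in K562 (1.81 times, interval 1.33 to 2.40). The LNCap interval included the density of the chromosome (1.09 times, interval 0.734 to 1.55). LNCap gave 23.4% of the window's silencers (interval 16.4 to 31.7), against 34.7% over the whole lists. The gap was widest in the upper part of the window: above 49.2 Mb lay 30 silencers of 293T and 23 of K562, but 8 of LNCap. From 49200000 to 49250000 the counts were 12 of 293T, 4 of K562 and 0 of LNCap. FOLH1 has a close copy elsewhere on chromosome 11, and how reads that map to several places were treated is not given in the sources used here.

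STEAP1 and STEAP2 are membrane proteins of the six-transmembrane epithelial antigen family, of which STEAP2 is a metalloreductase. Their window on chromosome 7, from 89.9 to 90.5 Mb, held 24, 37 and 31 silencers of 293T, K562 and LNCap, within counting error of the chromosome in each (0.886, 1.25 and 1.05 times). Silencers of different lists filled different stretches. From 90100000 to 90150000 lay 7 of 293T, 5 of K562 and 0 of LNCap, and from 90400000 to 90450000 lay 0 of 293T, 6 of K562 and 6 of LNCap.

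TMPRSS2 is a membrane serine protease whose androgen-driven promoter is joined to ERG in many prostate cancers. On chromosome 21 from 41.2 to 41.8 Mb, 11 silencers of 293T, 25 of K562 and 22 of LNCap were listed. The 293T count was low among bins of this length, of which 94.1% held at least as many. It was also low beside the other lists (0.508 times their mean share), though its interval included the density of chromosome 21 (0.726 times, interval 0.363 to 1.30).

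SLC45A3 encodes prostein, a membrane transporter of the prostate epithelium. Its window on chromosome 1, from 205.4 to 205.95 Mb, held 13 silencers of 293T, 26 of K562 and 35 of LNCap. LNCap lay above the density of the chromosome (1.57 times, interval 1.09 to 2.18). The intervals of K562 (1.22 times, interval 0.799 to 1.79) and 293T (0.684 times, interval 0.364 to 1.17) included 1. LNCap gave 47.3% of the window's silencers (interval 35.6 to 59.3, whole lists 34.7%) and 293T 17.6% (interval 9.70 to 28.2, whole lists 31.5%). From 205650000 to 205700000 there were 0 silencers of 293T beside 8 of K562 and 7 of LNCap. The highest LNCap score of all 14 windows, 6.5, belonged to chr1:205730501-205730551, which lay inside a K562 silencer of score 2.5.

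TRPM8, a cold-sensing ion channel that depends on androgen in the prostate, names the window on chromosome 2 from 233.65 to 234.3 Mb. It held 17, 18 and 24 silencers in 293T, K562 and LNCap. The 293T and K562 counts lay below their chromosome's density (0.597 times, interval 0.348 to 0.955, and 0.626 times, interval 0.371 to 0.989), and the LNCap interval included it (0.820 times, interval 0.526 to 1.22). In this window no silencer of any list overlapped one of another. Its highest scores, chr2:234011701-234011751 in K562 (4.5) and chr2:234170531-234170581 in LNCap (4.9), were each among the 5 highest of their list in all windows.

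**Figure D2:**
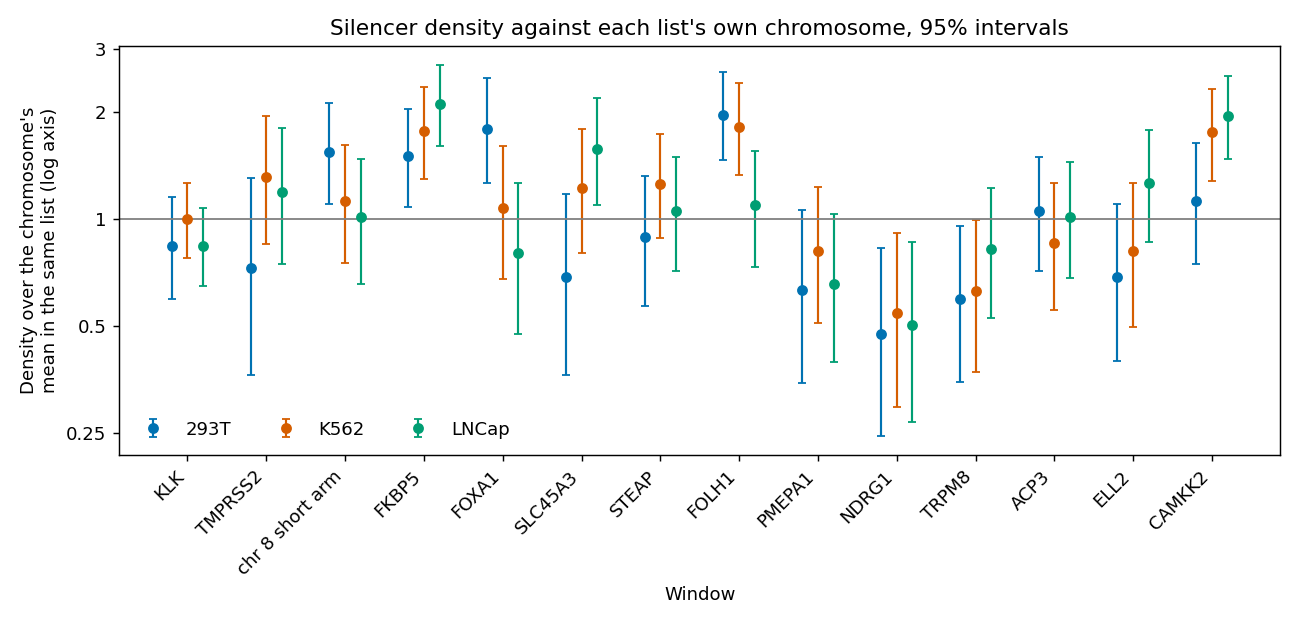
Silencer density of each window divided by the mean density of the same list on the same chromosome (vertical log axis), with 1 point per list and exact 95% Poisson intervals. FKBP5 lay above 1 in all 3 lists, NDRG1 below 1 in all 3, and the FOXA1 and SLC45A3 windows ordered the lists in opposite ways.

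Among the regulators, FOXA1 is the forkhead factor that opens androgen receptor sites. In its window on chromosome 14, from 37.3 to 37.85 Mb, 293T had 36 silencers, K562 23 and LNCap 18. The 293T count lay above its chromosome (1.79 times, interval 1.26 to 2.48), while the intervals of K562 (1.07 times) and LNCap (0.800 times, interval 0.474 to 1.26) included 1. 293T gave 46.8% of the silencers here (interval 35.3 to 58.5, whole lists 31.5%) and LNCap 23.4% (interval 14.5 to 34.4, whole lists 34.7%). The highest 293T score of all windows, 5.7, belonged to chr14:37716461-37716511, with the nearest midpoint of another list 15193 bp away. None of the 36 silencers of 293T overlapped another list, and K562 and LNCap shared 1 region, chr14:37701093-37701493.

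FKBP5, a co-chaperone of steroid receptors that androgens and glucocorticoids induce, names the window on chromosome 6 from 35.3 to 36 Mb. It was dense in every list, with 42 silencers of 293T, 47 of K562 and 59 of LNCap. Against chromosome 6 this was 1.5 times in 293T (interval 1.08 to 2.03), 1.76 times in K562 (interval 1.29 to 2.34) and 2.10 times in LNCap (interval 1.60 to 2.71). Of all genome bins of its length, 10.6% held at least its total of 148. The top K562 score of all windows, 5.4 at chr6:35580633-35580683, lay here, as did LNCap's second, 5.5 at chr6:35825351-35825401, and 293T's second, 5 at chr6:35902225-35902275. None of these overlapped a silencer of another list.

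CAMKK2, a calcium-dependent kinase and androgen receptor target, names the window on chromosome 12 from 121 to 121.55 Mb. It held 28 silencers of 293T, 47 of K562 and 56 of LNCap. LNCap (1.94 times, interval 1.47 to 2.52) and K562 (1.75 times, interval 1.28 to 2.32) lay above their chromosome, and the 293T interval included it (1.12 times, interval 0.747 to 1.63). With 131 silencers in all, 6.69% of genome bins of this length held as many, the smallest such share of the 14 windows. From 121500000 to 121550000 lay 0 silencers of 293T, 8 of K562 and 6 of LNCap. From 121350000 to 121400000 lay 11 of LNCap, 7 of K562 and 4 of 293T.

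ELL2 is an elongation factor of RNA polymerase II that responds to androgen. On chromosome 5 from 95.6 to 96.2 Mb, 17 silencers of 293T, 20 of K562 and 32 of LNCap were listed. LNCap gave 46.4% of them (interval 34.3 to 58.8, which includes the 34.7% of the whole lists). Its count had an interval that included the density of its chromosome (1.26 times, interval 0.861 to 1.78). From 95750000 to 95800000, 8 LNCap silencers stood beside 2 of K562 and 0 of 293T.

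NDRG1, a stress- and androgen-responsive gene, lies in the sparsest window, chromosome 8 from 133 to 133.55 Mb, with 12, 14 and 13 silencers in 293T, K562 and LNCap. All lists lay below the density of chromosome 8 (0.474, 0.543 and 0.503 times, with upper bounds of 0.828, 0.910 and 0.860), and 92.1% of genome bins of this length held at least its total of 39. PMEPA1, an androgen-induced inhibitor of TGF-beta signalling, names the window on chromosome 20 from 57.4 to 57.95 Mb. It held 14, 22 and 19 silencers, lower in value than the chromosome in each list (0.632, 0.814 and 0.657 times) with intervals that include 1. The remaining window, on chromosome 8 from 23.4 to 23.95 Mb, held 39 silencers of 293T, 29 of K562 and 26 of LNCap. There 293T lay above the chromosome (1.54 times, interval 1.10 to 2.11), and 9 of its silencers lay from 23900000 to 23950000, where K562 and LNCap had 0.

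The balance between lines differed from window to window. A window was counted as high or low for a list when that ratio of shares was over 1.5 or under 0.667. LNCap was high in 2 of 14 windows (SLC45A3, 1.71 times, and ELL2, 1.63 times), a call met by 6.51% of 600 kb genome bins with at least 20 silencers. It was low in 2 (FOXA1, 0.570 times, and FOLH1, 0.575 times), against 12.4% of bins. K562 was high in 1 window (TMPRSS2, 1.51 times), against 4.89% of bins, and low in 0, against 9.12%. 293T was high in 2 (FOXA1, 1.90 times, and the chromosome 8 short arm window, 1.54 times), against 14.8% of bins. It was low in 4 (KLK, 0.636, TMPRSS2, 0.508, SLC45A3, 0.463, and CAMKK2, 0.591 times), against 13.1% of bins. The ratios of a window are tied to each other, since each list is set against the same other 2. The count that lay farthest above its share of bins was that of windows low in 293T, and none of these counts was tested against the genome.

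**Figure D3:**
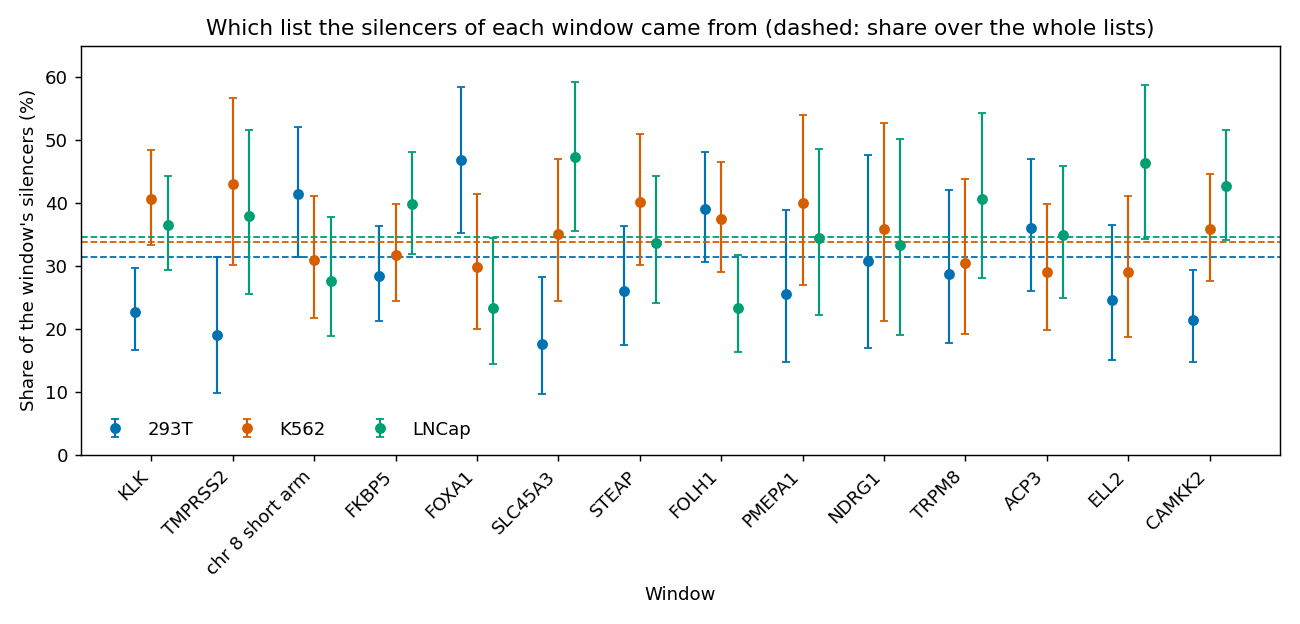
Share of each window's silencers that came from each list (%, vertical axis), with exact 95% binomial intervals; dashed lines give each list's share over the whole lists (31.5% 293T, 33.8% K562, 34.7% LNCap). LNCap rose highest in the SLC45A3 (47.3%) and ELL2 (46.4%) windows and was lowest in the FOXA1 and FOLH1 windows (23.4% in both).

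At a finer scale, some stretches were filled by 1 or 2 lists and empty in another. Of the 170 stretches of 50 kb that tile the windows, none lacked silencers of every list, and 42 held at least 6 silencers of 1 list. In 8 of those 42 another list had none, as in 1269 of the 10061 such stretches genome-wide (13%). That difference was not tested. The 8 stretches lie in the FOXA1, SLC45A3, FOLH1, ELL2 and CAMKK2 windows and the chromosome 8 short arm window (1 each) and in the STEAP window (2). 293T was the absent list in 4 of them (SLC45A3, ELL2, CAMKK2 and 1 of STEAP). The length of 50 kb and the minimum of 6 were picked after the counts had been seen. The longest run without any silencer measured 67.1 kb, in the ACP3 window (132276226 to 132343351), and the shortest such maximum was 22.9 kb, in the FOLH1 window.

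**Figure D4:**
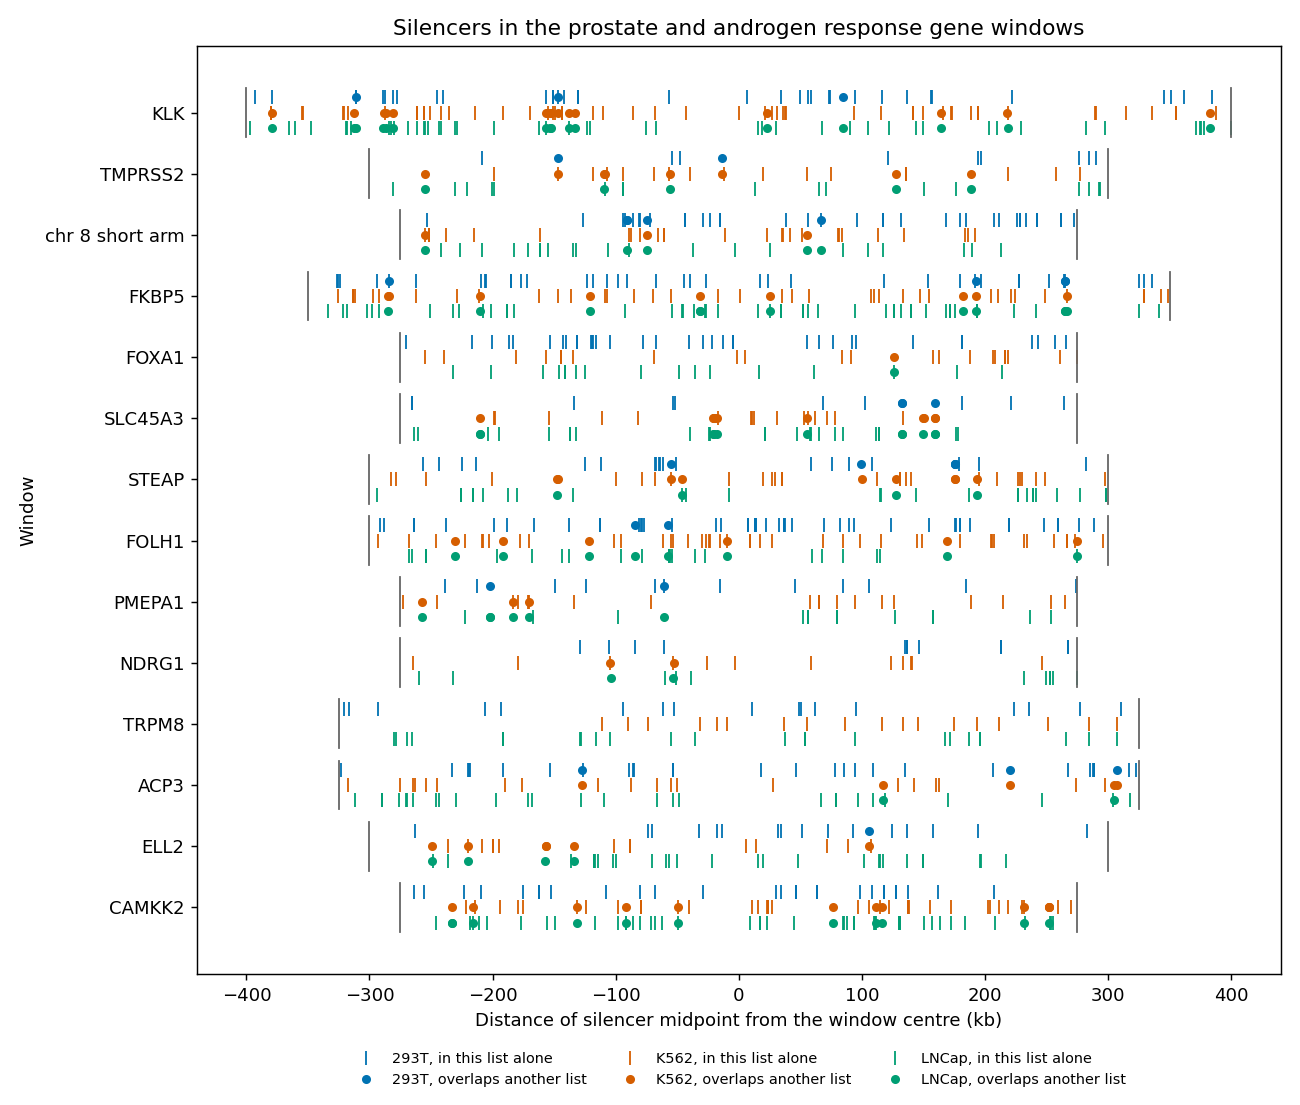
Position of each of the 1282 silencers as the distance of its midpoint from the centre of its window (kb, horizontal axis), with 1 row per window and list; ticks are silencers of 1 list alone, dots overlap another list, and grey lines mark the window's ends. Dots of K562 and LNCap crowd in the lower part of the KLK window, and the TRPM8 window has none.

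Few silencers of these loci were listed in more than 1 line. The 1282 silencers formed 1171 merged regions, of which 344 were held by 293T alone, 362 by K562 alone and 372 by LNCap alone. K562 and LNCap shared 66 regions that 293T lacked (5.64%), 293T and K562 shared 12, 293T and LNCap shared 12, and all lists shared 3. Counted by silencer, 73 of 458 LNCap members overlapped K562 by at least 1 bp (15.9%, interval 12.7 to 19.6, whole list 15.4%). In the other direction, 77 of 451 K562 members overlapped LNCap (17.1%, interval 13.7 to 20.9, whole list 15.7%). Overlap with 293T was 17 of 458 for LNCap (3.71%, whole list 3.23%) and 16 of 451 for K562 (3.55%, whole list 3.03%). Of 373 members in 293T, 16 overlapped K562 (4.29%, whole list 3.30%) and 16 overlapped LNCap (4.29%, whole list 3.58%). Each of these intervals included the share of the whole list. Lists were also cut to silencers above their own median score. Of the K562 members left, 19.6% overlapped an LNCap silencer left (interval 14.4 to 25.7, whole cut list 13.3%). In the other direction it was 15.4% (interval 11.2 to 20.5, whole cut list 12.2%). Of all ordered pairs so cut, only K562 in LNCap had an interval that left out the share of the whole cut list.

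**Figure D5:**
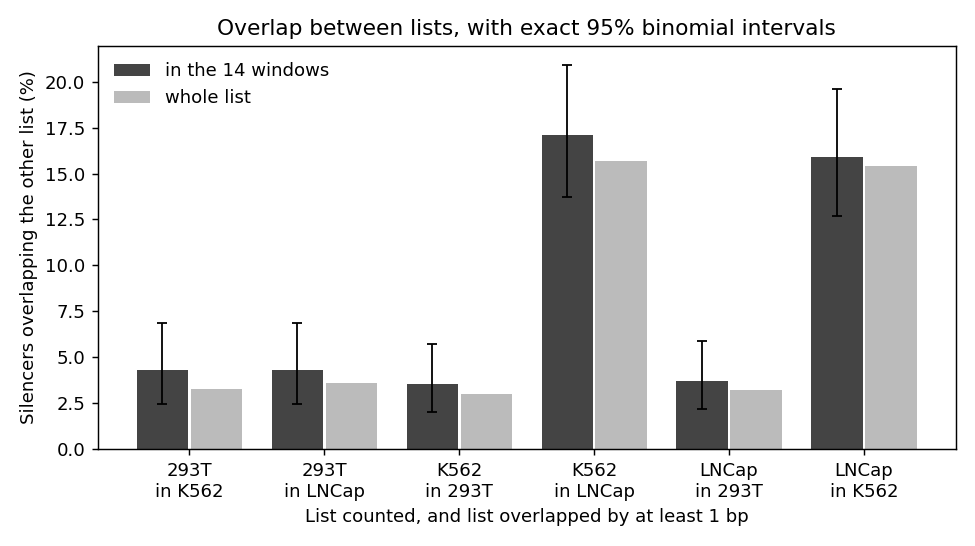
Share of silencers that overlap another list by at least 1 bp (%, vertical axis) for each ordered pair of lists, in the 14 windows (dark bars, exact 95% binomial intervals) and over the whole list (light bars). Each light bar ends within the interval of the dark bar beside it, and K562 and LNCap overlap most in both.

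Regions shared by K562 and LNCap were most numerous in the KLK window, with 14, followed by CAMKK2 with 10 and FKBP5 with 8. One of the 8 at FKBP5 was also held by 293T. In the KLK window 10 of the 14 lay below 50.9 Mb, the middle of the window, where 39 of the 70 K562 and 38 of the 63 LNCap silencers lay too. Relative to the silencers present, sharing was highest at SLC45A3, where 10 of 26 K562 silencers overlapped LNCap (38.5%) and 9 of 35 LNCap silencers overlapped K562 (25.7%). None was shared at TRPM8 (0 of 18 in K562), and at FOXA1 1 of 23 was. These counts per window are small, and no difference between windows was tested.

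The 3 regions held by every list were chr1:205833931-205834285 in the SLC45A3 window, chr6:35842801-35843101 in the FKBP5 window and chr8:23600461-23600700 on the short arm of chromosome 8. At the SLC45A3 region the highest score of 293T was 2.1, that of K562 2.4 and that of LNCap 3.1, and K562 and LNCap each listed 2 silencers there. At the FKBP5 region they were 3.3, 2.3 and 2.6, and on chromosome 8 they were 3.0, 2.4 and 2.9. None of the 3 was among the 5 top-scoring members of any list.

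Of the regions in both K562 and LNCap, the one with the highest lower score was chr3:132629550-132629600 in the ACP3 window, which scored 4.2 in K562 and 4.8 in LNCap with the same bounds over 50 bp. It was followed by chr11:49190350-49190401 at FOLH1 (3.5 and 3.4). Next came chr7:90052551-90052901 at STEAP (3.6 and 3.3), chr20:57491341-57491451 at PMEPA1 (3.3 and 3.3) and chr21:41444338-41444401 at TMPRSS2 (4.3 and 3.3). The silencer on chromosome 21 was the only one of the 5 top-scoring K562 members to overlap another list, and both its lists gave their window's highest score there.

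For regions shared with 293T, the highest lower score with LNCap was 2.9, at the region on chromosome 8 held by all lists, followed by 2.8 at chr6:35915105-35915181 (FKBP5; 2.8 in 293T and 2.9 in LNCap). For 293T and K562 it was 2.6, at chr3:132631865-132632262 (ACP3; 2.8 and 2.6) and at chr19:50753001-50753201 (KLK; 2.6 and 4.0). Among all members, 74.4% of LNCap silencers that overlapped another list scored above the list's median, against 50.8% of those that did not. For K562 these shares were 65.2% and 40.3%, and for 293T 65.5% and 47.4%. Over the whole lists they were 62.0% and 46.7% in LNCap, 55.8% and 44.4% in K562, and 51.7% and 43.2% in 293T.

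LNCap silencers at the prostate loci, and in value those of 293T, scored slightly higher than those of their lists at large. Of 458 in LNCap, 253 scored above the LNCap median of 2.2 (55.2%, interval 50.6 to 59.9), against 49.4% over the whole list. In 293T, 182 of 373 scored above the median of 2.3 (48.8%, interval 43.6 to 54.0, whole list 43.7%), and in K562 204 of 451 scored above 2.2 (45.2%, lower bound 40.6, whole list 46.4%). For LNCap the share of the whole list lay below the interval, and for 293T it lay just inside it. In K562 the members' share was below that of the list in value. At scores of at least 3 the LNCap members were level with their list (12.2% against 11.6%), and 67 of the 373 members of 293T did (whole list 14.2%). By window, the LNCap share above the median ran from 36.8% at PMEPA1 to 70.0% at ACP3, with 66.7% at FOXA1, on 19, 30 and 18 silencers. No member had an infinite score.

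The silencers were short, as in the lists at large. Members had a median width of 50 bp in every list. Exactly this width was found for 63.8% of members of 293T, 57.2% of K562 and 60.0% of LNCap (whole lists 64.5%, 58.7% and 60.6%). How the widths were set is not given in the sources used here, so they are not read as the size of an element. The widest member was a K562 silencer of 647 bp at chr3:132352295-132352942 in the ACP3 window, with a score of 2. The widest of LNCap, 540 bp at chr6:35618561-35619101 in the FKBP5 window, overlapped the third widest of K562, 536 bp at chr6:35618415-35618951. In 293T the widest was 351 bp at chr3:132104550-132104901, again in the ACP3 window.

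Silencers of 1 list lay within 500 bp of another of the same list for 111 of 373 members in 293T (29.8%, interval 25.2 to 34.7, whole list 26.1%). The counts were 126 of 451 in K562 (27.9%, interval 23.8 to 32.3, whole list 25.0%) and 146 of 458 in LNCap (31.9%, interval 27.6 to 36.4, whole list 26.9%). Such silencers come in groups, 69 runs of at least 2 in LNCap, so these binomial intervals are too narrow and do not place a list's members apart from the list. The longest runs held 4 silencers: chr12:121405301-121405951 at CAMKK2 and chr11:49142601-49143951 at FOLH1 in LNCap, and chr11:49213251-49213900 at FOLH1 in 293T. The 293T run lies in the stretch of the FOLH1 window where LNCap had none.

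For comparison, 8 windows of erythroid genes (the globin clusters and GATA1, ALAS2, KLF1, EPOR, TAL1 and the glycophorins) were counted in the same way. They were denser than their chromosomes in every list, 1.34 times in 293T (interval 1.19 to 1.51), 1.30 times in K562 (interval 1.16 to 1.45) and 1.33 times in LNCap (interval 1.20 to 1.48). The share of a list in the erythroid windows was 1.01 times the mean of the others for K562, 1.09 times for LNCap and 0.913 times for 293T. The difference between the prostate and the erythroid windows was not tested.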

How the data were processed

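Ss-STARR-seq output RNA and input DNA libraries of 293T, K562 and LNCap were represented by the authors' 3 deposited silencer lists, whose columns, per the file headers, are a position and an activity. The activity is the authors' score, kept here where it had at most 1 decimal. Its scale is not stated. Reads were handled with Bowtie2 and SAMtools on hg38, per the submitters' processing notes; the sources used here give neither the caller nor its thresholds, nor how libraries were combined. No source says if starts are 0- or 1-based, so positions are printed as deposited. Depth is unknown.

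Broken lines, lines off the numbered, X and Y chromosomes and widths over 5000 bp were left out. So were scores that could not be read, were under 2 or had more than 1 decimal. Together these came to 58, 12 and 24 lines for 293T, K562 and LNCap. Chromosome lengths were the highest end in any list, and so include stretches without silencers. Overlap was at least 1 bp. Genome bins are non-overlapping, and bins empty in every list were left out. Intervals are exact 95% Poisson or Clopper-Pearson; no test was run, since each line has 1 list. Counting and overlap functions were tested on simulated data. The windows, comparison windows and rules were chosen with earlier results of these data known. Named are all windows, the 5 highest scores and 3 widest members per list, the highest LNCap score per window, regions in all lists, and the 5 shared regions per pair with the highest lower score. Of these, only those that a comparison rests on are printed; runs, stretches and regions of single windows were added after their values were seen. Alternatives were the score threshold, merging, window size and set, the overlap rule, width and broken lines. No sequence or gene feature was analysed here. Tools were scipy 1.17.1, pandas 2.3.3, numpy 2.4.6 and, for plots, matplotlib 3.10.9, under Python 3.11.15.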

Additional observations from a re-analysis of the deposited data

How the results depend on the processing

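Of 243 values under alternatives, 216 stayed within the interval of the main value and 27 moved outside it. Most of the 243 only left out 1 of the 14 windows, which could hardly move a pooled value, and none of those moved. All 27 came from the other alternatives, so the count of 216 says little on stability. A turn of direction was looked for only in densities whose main interval excludes 1, and 0 turned. Ratios of shares were not part of that count. That of 293T, with a main interval of 0.803 to 0.986, did pass 1 at scores of at least 3. That interval covers the counting error of the 293T count only. It is too narrow for a ratio and does not place 293T below the other lists. Above each list's median score, the density over the chromosomes was 1.16 in 293T and 1.23 in LNCap, and the K562 share over the other lists went from 1.07 to 0.930; the erythroid windows, an alternative added after the data were seen, came to 1.52 in 293T. At scores of at least 3, the density was 1.33 in 293T, the share over the other lists went from 0.891 to 1.10 in 293T and to 0.916 in K562, across 1 in both, and the members past that score made up 18% (293T), 9.76% (K562) and 12.2% (LNCap). In the middle part of each window the density was 1.14 in 293T (interval 0.993 to 1.31). There it was 1.22 in K562 (interval 1.07 to 1.38) and 1.12 in LNCap (interval 0.978 to 1.27). With at least 50% of a silencer covered, overlap was 2.41% for 293T in K562, 1.55% for K562 in 293T, 10.9% for K562 in LNCap and 10.9% for LNCap in K562. With midpoints within 500 bp it was 10.2% and 11.8% for 293T in K562 and LNCap, 8.65% and 29.0% for K562 in 293T and LNCap, and 9.83% and 28.6% for LNCap in 293T and K562. Set to 300 bp, these were 9.38%, 9.65%, 7.76%, 27.3%, 7.86% and 26.6%. A wider rule meets more silencers by its construction; the cause of the other shifts was not tested. Leaving out windows in turn moved the LNCap density between 1.03 (without FKBP5) and 1.15 (without KLK), that of K562 between 1.07 (its interval then including 1 without FKBP5, FOLH1 or CAMKK2) and 1.16, and that of 293T between 0.960 (without FOLH1) and 1.07. Small counts per window and the unknown depth limit every statement on single windows. No paired analysis was possible because the lists carry no replicate numbers, there is 1 list per line and no test was run.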
